A study of Mus musculus with 5 samples.

Results

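The genes described are 10 cytoskeletal and growth-cone genes of neurons: *Prph*, *Nefl*, *Nefm*, *Nefh*, *Ina*, *Gap43*, *Stmn2*, *Tubb3*, *Map2*, and *Mapt*. They were taken by symbol from the deposited table of 20224 genes, through the Ensembl identifier of each row, and each of the 10 had a row and passed the filter on low counts. The rule that picks them is a list of symbols and uses no measured value, but the list was drawn up with earlier results of these data known. The genes were followed in bulk RNA-seq of sympathetic neurons, sorted from mouse embryos at E14.5, with 2 libraries of controls (replicates 5 and 6) and 3 of *Hif1aCKO* (replicates 3, 4, and 5). The comparison asks what loss of *Hif1a*, the gene of the oxygen-regulated subunit of the HIF-1 transcription factor, changes in developing sympathetic neurons, here in the transcripts that build and regulate their axons. None of the 10 genes passed the test across all genes, which called 0% of all genes tested. In the 5 intermediate filament genes the *Hif1aCKO* mean differed from the control mean by -12.9% to 11.3%, whereas *Gap43*, *Stmn2*, and *Tubb3* had lower counts in every *Hif1aCKO* library than in either control library, as did 12.9% of all genes.

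Neuronal intermediate filaments are ropes of coiled-coil proteins that fill the axon and set its calibre. *Nefl*, *Nefm*, and *Nefh* encode the light, medium, and heavy neurofilament subunits, *Ina* encodes alpha-internexin, which precedes the neurofilaments in many developing neurons, and *Prph* encodes peripherin, a filament protein typical of neurons with axons in the periphery. The heavy subunit is known to appear late in development. The other members act on microtubules and at the growing tip: *Tubb3* encodes the neuron-specific class III beta-tubulin, *Map2* and *Mapt* encode microtubule-associated proteins of dendrites and axons, *Stmn2* encodes a stathmin that binds tubulin dimers, and *Gap43* encodes a membrane-bound protein of growth cones.

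*Hif1aCKO* embryos were Isl1tm1(cre)Sev/+;Hif1a loxP/loxP, and the sorted controls had 1 floxed *Hif1a* allele (Hif1a loxP/+) and also carried *Isl1Cre*, so their neurons keep a single unfloxed copy of *Hif1a*. Both groups carried the tdTomatoAi14 reporter, which Cre switches on, and the Prph-eGFP transgene, and both came from non-diabetic pregnancies with no treatment. The study's methods also describe controls without *Isl1-Cre*, but sorting on tdTomato needed the Cre. *Isl1-Cre* is a knock-in that occupies an *Isl1* allele in both groups and acts in all cells with a history of *Isl1* expression, so recombination was not limited to sympathetic neurons. The floxed allele (Hif1atm3Rsjo) loses exon 2, and read counts of the whole gene do not report it: *Hif1a* had 2086 and 1584 normalized counts in the controls, and 2747, 1757, and 2135 in *Hif1aCKO* replicates 3 to 5. The targeted gene therefore did not check the genotype labels.

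The eGFP reporter used to sort the cells is driven by the peripherin gene, so *Prph* was linked to the gate in both groups. Whether transcripts of the transgene add reads to *Prph* was not tested. RefSeq entries of the region before the transcription start were at hand for 4 of the 10 genes (*Prph*, *Ina*, *Tubb3*, and *Map2*) on GRCm38.p6. Those of *Prph*, the gene of the sorting reporter, and of *Tubb3*, the member with the smallest p-value, are shown, that of *Tubb3* in part. They are printed 5′ to 3′ on the plus strand, with TATAAA and GGGCGG, or its reverse complement CCGCCC, in capitals.

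Prph, chr15:99054924-99055173: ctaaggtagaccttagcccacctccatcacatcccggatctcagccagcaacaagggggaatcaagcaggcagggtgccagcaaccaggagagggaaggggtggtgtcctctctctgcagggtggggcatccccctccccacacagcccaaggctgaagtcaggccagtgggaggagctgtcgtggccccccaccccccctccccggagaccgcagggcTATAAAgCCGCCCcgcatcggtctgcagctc

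Tubb3, chr8:123411303-123411423: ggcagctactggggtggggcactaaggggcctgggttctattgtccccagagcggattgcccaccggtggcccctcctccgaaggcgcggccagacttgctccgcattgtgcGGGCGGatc

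The *Prph* stretch of 250 bases had a GC content of 65.2%, a TATAAA that began 31 bases before the start, and a CCGCCC that began 24 bases before it. The *Tubb3* stretch of 121 bases had a GC content of 67.8% and 1 GGGCGG. It was cut where the annotated gene begins (123411424), so the bases from there to the RefSeq start at 123411553 are not printed. The other GGGCGG, which began 46 bases before the RefSeq start, lies in the part left out. Over 250 bases before the start, searched on both strands, *Prph* held 1 GGGCGG, *Ina* 2, *Tubb3* 2, and *Map2* 5, while only *Prph* of the 4 held TATAAA. Of 32851 regions of 250 bases, 32.7% held GGGCGG and 12.4% held TATAAA. The core of the hypoxia response element, searched as ACGTG and GCGTG, was in 16.6% and 28.2% of these regions, and neither was in the 4 windows, which says only that these letters are not there.

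The counts summed to between 8254211 and 9700887 per library, each made from 100 sorted cells. Values are given as normalized counts, which are counts scaled to a common library size with TMM factors of 0.974 to 1.03. The 17 markers of sympathetic neurons were all detected, with summed normalized counts of 62090 and 74306 in controls and of 55765, 53395, and 55540 in *Hif1aCKO*. Sums were also lower in every *Hif1aCKO* library for markers of chromaffin cells (8863 and 11787 against 3427, 8486, and 4418). The granin gene *Chgb* had means of 7105 normalized counts in controls and 2205 in *Hif1aCKO*, while the granin gene *Chga* had 2692 and 2706. Of the 4 chromaffin markers tested, 2 were higher and 2 lower by group mean. Sums for markers of motor neurons, mostly *Slc18a3*, were lower as well (708 and 966 against 353, 371, and 540). Markers of mesenchyme, endothelium, erythroid cells, and sensory neurons summed to at most 81.7 in any library. Replicate 3 of *Hif1aCKO* stood apart by markers of Schwann cell precursors, whose 6 genes with a row summed to 1224 normalized counts there and to 50.1 to 90.5 in the other 4 libraries. In that library *Fabp7* had 926 counts, against at most 9 elsewhere, and *Sox10* had 8 counts, against at most 1. Values of the 10 genes, of the ratios that set the groups apart, and of the related genes named for a small p-value are therefore also given without it. *Xist* marked control replicate 5 and *Hif1aCKO* replicate 3 as female, and *Ddx3y* marked the other 3 libraries as male, so both groups held both sexes. The 12 markers of cycling cells were all higher in *Hif1aCKO* by group mean, with sums of 25905 and 22297 in controls and of 34202, 41021, and 32709 in *Hif1aCKO*. For 10 of the 12 the groups did not overlap, beside 12.9% of all genes tested that were higher without overlap. *Isl1*, which the Cre knock-in touches in both groups, had a mean of 13298 ± 1020 normalized counts in controls (SD, n = 2) and of 8385 ± 509 in *Hif1aCKO* (SD, n = 3). How far the glial reads, the other marker lists, or the level of *Isl1* bear on the values below was not tested.

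Per kilobase of annotated exon, *Gap43* ranked 4 among the 15032 genes tested, with a mean of 21793 normalized counts per kb over the 5 libraries. *Tubb3* followed at rank 19 with 9426 per kb, *Nefl* at 21 with 8698, *Nefm* at 49 with 4635, *Stmn2* at 57 with 3858, and *Prph* at 96 with 2790. *Ina* ranked 494 with 990 per kb, *Mapt* 1545 with 355, and *Map2* 2788 with 186. *Nefh* was the exception at rank 9528 with 24.1 per kb, so the heavy subunit was at a trace of the level of the light subunit. Each gene was above the next in all 5 libraries, except that *Nefl* passed *Tubb3* in *Hif1aCKO* replicate 3 and *Stmn2* passed *Nefm* in control replicate 6. Lengths count every annotated exon, so a gene with long alternative ends, such as *Map2* with 16449 bases or *Stmn2* with 5602, is placed low.

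**Figure D1:**
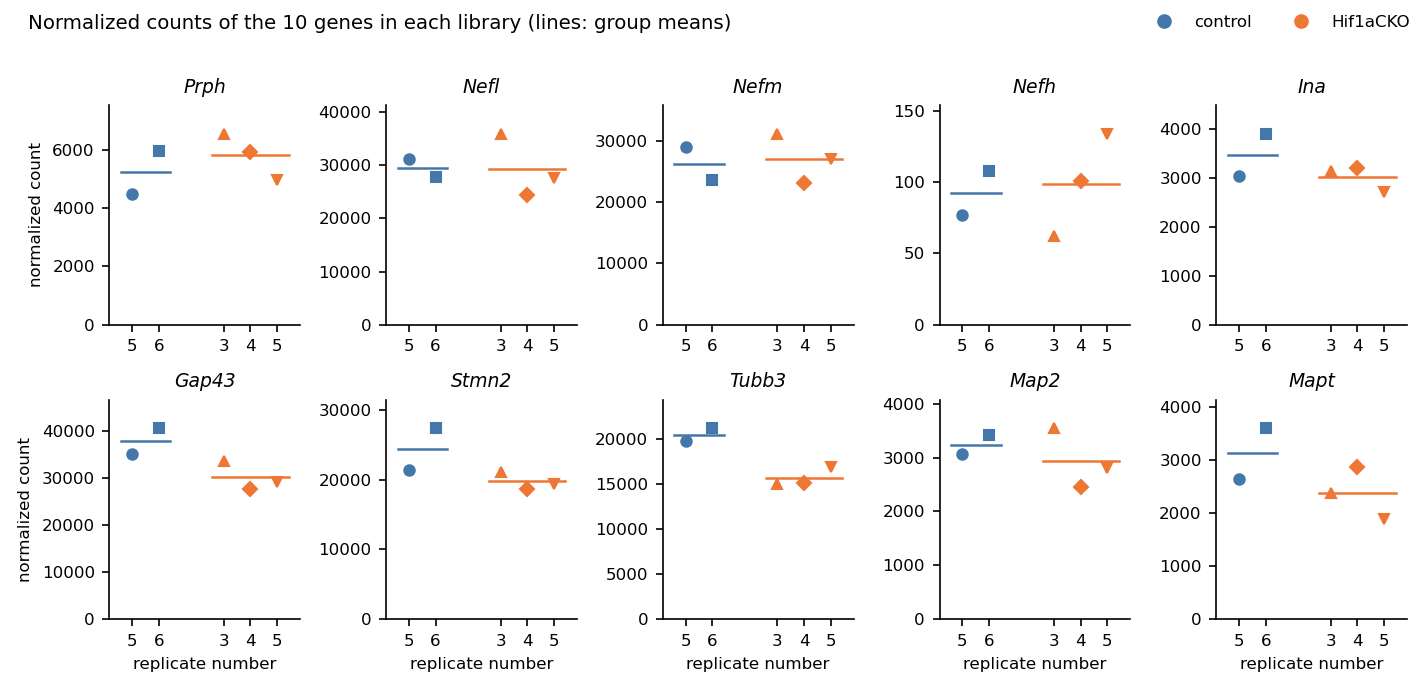
Normalized counts (vertical axes, linear from 0, a scale per gene) of the 10 genes in each library, with control replicates 5 and 6 in blue and *Hif1aCKO* replicates 3, 4, and 5 in orange, and lines for the group means. For *Gap43*, *Stmn2*, and *Tubb3* the 3 orange points lie below both blue points, and for the other 7 genes the groups overlap.

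*Prph* (ENSMUSG00000023484, GRCm38 chromosome 15, 99055174 to 99058978, plus strand) had 4483 normalized counts in control replicate 5 and 5966 in control replicate 6, and 6541, 5927, and 4970 in *Hif1aCKO* replicates 3, 4, and 5. Members below are given in the same order of libraries. The lowest and the highest value were in the female libraries, and the male *Hif1aCKO* libraries lay below the male control. The group means of 5224 ± 1048 (SD, n = 2) and 5812 ± 791 (SD, n = 3) overlapped, with a log2 fold change of *Hif1aCKO* against control of 0.15 (SE 0.17, edgeR, adjusted p = 0.868). The difference was -0.04 without control replicate 5 and 0.06 without *Hif1aCKO* replicate 3. The 95% interval of -0.23 to 0.54 covers folds from 0.853 to 1.45.

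*Nefl* (ENSMUSG00000022055, chromosome 14, 68083863 to 68089095, plus strand), the core subunit on which the other neurofilament proteins assemble, had 31125 and 27865 normalized counts in the controls, and 35957, 24504, and 27546 in *Hif1aCKO* replicates 3, 4, and 5. *Hif1aCKO* libraries were both the highest and the lowest, and the group means of 29495 ± 2305 (SD, n = 2) and 29336 ± 5933 (SD, n = 3) were nearly equal. The log2 fold change was -0.01 (SE 0.15, edgeR, adjusted p = 0.996), with a 95% interval of -0.36 to 0.34. Without *Hif1aCKO* replicate 3 both remaining *Hif1aCKO* libraries lay below the controls, and the difference was -0.18.

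*Nefm* (ENSMUSG00000022054, chromosome 14, 68082590 to 68124846, minus strand), whose long tail projects from the filament, had 29037 and 23562 normalized counts in the controls, and 31193, 23193, and 27007 in *Hif1aCKO*. The libraries came in the same order as for *Nefl*, except that control replicate 6 and *Hif1aCKO* replicate 5 changed places. Group means were 26300 ± 3872 (SD, n = 2) and 27131 ± 4002 (SD, n = 3), a log2 fold change of 0.04 (SE 0.14, edgeR, adjusted p = 0.965) that was -0.07 without *Hif1aCKO* replicate 3. *Nefl* and *Nefm* lie on opposite strands and share 1108 annotated exonic bases, 32.8% of those of *Nefl* and 19.2% of those of *Nefm*. The authors counted with the default settings of Rsubread, which use no strand and leave out reads that overlap more than 1 gene, so reads in the shared stretch may be missing from both genes.

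*Nefh* (ENSMUSG00000020396, chromosome 11, 4938754 to 4948064, minus strand) was low, with 77.1 and 108 normalized counts in the controls, and 62.2, 101, and 134 in *Hif1aCKO*. Its values were spread over 2.16-fold across the 5 libraries, the widest of the 10 genes, with *Hif1aCKO* replicate 3 lowest and replicate 5 highest. The log2 fold change of 0.10 had an SE of 0.44 (edgeR, adjusted p = 0.974), and its 95% interval covered folds from 0.533 to 2.16. On 58 to 138 counts per library, a smaller change was not detectable for *Nefh*, and the log2 fold change was 0.35 without *Hif1aCKO* replicate 3.

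*Ina* (ENSMUSG00000034336, chromosome 19, 47014698 to 47025327, plus strand) had 3046 and 3905 normalized counts in the controls, and 3154, 3215, and 2710 in *Hif1aCKO*. Control replicate 6 alone was high, and control replicate 5 lay within the *Hif1aCKO* range. The means were 3475 ± 608 (SD, n = 2) and 3027 ± 276 (SD, n = 3), a log2 fold change of -0.20 (SE 0.15, edgeR, adjusted p = 0.787) that was -0.02 without control replicate 6 and -0.23 without *Hif1aCKO* replicate 3. Its exons share 456 bases (14.1%) with *Nt5c2* on the other strand, which had means of 691 and 609 normalized counts.

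Of the 5 filament genes, 3 were higher and 2 lower in *Hif1aCKO*, with a median log2 fold change of 0.05, beside 0.01 over all 15032 genes. In none of the 5 were the groups apart, beside 25.7% of all genes tested, and none had an unadjusted p under 0.05, beside 7.67% of all genes. Their summed counts were 0.671% to 0.869% of each library's total counts. The range was set by *Hif1aCKO* replicates 4 and 3.

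*Gap43* (ENSMUSG00000047261, chromosome 16, 42248442 to 42340651, minus strand) had 34990 and 40504 normalized counts in the controls, and 33570, 27691, and 29202 in *Hif1aCKO*. The groups did not overlap, but the gap between control replicate 5 and *Hif1aCKO* replicate 3, the female libraries, was small. Group means were 37747 ± 3899 (SD, n = 2) and 30155 ± 3053 (SD, n = 3), a difference of -20.1%. The log2 fold change of -0.32 (SE 0.11, 95% interval -0.57 to -0.08) had an unadjusted p of 0.0148 and an adjusted p of 0.618 in edgeR. It no longer had an unadjusted p under 0.05 without control replicate 6 (-0.22), without *Hif1aCKO* replicate 5 (-0.30), or in edgeR's likelihood ratio test. In bulk samples such as these, fewer cells with much *Gap43* and less *Gap43* RNA per cell cannot be told apart.

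*Stmn2* (ENSMUSG00000027500, chromosome 3, 8509360 to 8561606, plus strand) had 21378 and 27396 normalized counts in the controls, and 21114, 18744, and 19442 in *Hif1aCKO*. The *Hif1aCKO* libraries lay close together, and the highest of them was just below control replicate 5. Group means were 24387 ± 4256 (SD, n = 2) and 19767 ± 1218 (SD, n = 3), with a log2 fold change of -0.30 (SE 0.12), an unadjusted p of 0.0317, and an adjusted p of 0.621 in edgeR. It no longer had an unadjusted p under 0.05 without control replicate 6 (-0.12), without *Hif1aCKO* replicate 4 (-0.27), without *Hif1aCKO* replicate 5 (-0.29), with at least 10 counts asked of every library, or in edgeR's likelihood ratio test.

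*Tubb3* (ENSMUSG00000062380, chromosome 8, 123411424 to 123422015, plus strand) had the smallest p-value of the 10 genes. It had 19774 and 21205 normalized counts in the controls, and 14996, 15168, and 16899 in *Hif1aCKO*. Both groups were tight, with means of 20489 ± 1012 (SD, n = 2) and 15688 ± 1052 (SD, n = 3), a difference of -23.4%. The log2 fold change of -0.39 (SE 0.09, 95% interval -0.60 to -0.17) had an unadjusted p of 0.00306 and an adjusted p of 0.586 in edgeR, and the adjusted p was 0.12 in DESeq2. The value was -0.40 within the female and -0.40 within the male libraries, and it stayed between -0.44 and -0.34, with an unadjusted p under 0.05 in edgeR, whichever library was left out.

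*Map2* (ENSMUSG00000015222, chromosome 1, 66175273 to 66442583, plus strand) had 3067 and 3416 normalized counts in the controls, and 3546, 2455, and 2809 in *Hif1aCKO*. *Hif1aCKO* replicate 3 was above both controls and the other 2 below them. The log2 fold change was -0.14 (SE 0.17, edgeR, adjusted p = 0.888) over all libraries and -0.30 without replicate 3.

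*Mapt* (ENSMUSG00000018411, chromosome 11, 104231390 to 104332090, plus strand), which encodes tau, had 2645 and 3591 normalized counts in the controls, and 2380, 2864, and 1887 in *Hif1aCKO*. The groups overlapped because replicate 4 of *Hif1aCKO* exceeded control replicate 5. Means were 3118 ± 669 (SD, n = 2) and 2377 ± 489 (SD, n = 3), and the log2 fold change of -0.39 matched that of *Tubb3* in size but had an SE of 0.21 (edgeR, adjusted p = 0.699). The unadjusted p of *Mapt* was under 0.05 without control replicate 5, without *Hif1aCKO* replicate 4, and in limma-voom with quality weights, and its log2 fold change was also -0.39 without *Hif1aCKO* replicate 3.

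All 5 of these genes were lower in *Hif1aCKO* by group mean, with a median log2 fold change of -0.32 and a range from -0.39 to -0.14. Genes with a mean normalized count of at least 1000 had a median of -0.04, with 1188 of 2087 lower. *Gap43*, *Stmn2*, and *Tubb3* had all *Hif1aCKO* libraries below both controls, as did 12.9% of all genes tested and 19.5% of those with a mean of at least 1000. The same 3 genes had an unadjusted p under 0.05 with a lower value, beside 3.85% of all genes and 7.38% of those with a mean of at least 1000. At the call rule, which asks for a mean of at least 50 normalized counts, a log2 fold change beyond 0.3, and an adjusted p under 0.05, edgeR called 0 of the 10 genes and 0% of all genes, of which 1153 had an unadjusted p under 0.05. DESeq2 called 0 of the 10 as well, beside 0.454% of the 14304 genes it gave an adjusted p.

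**Figure D2:**
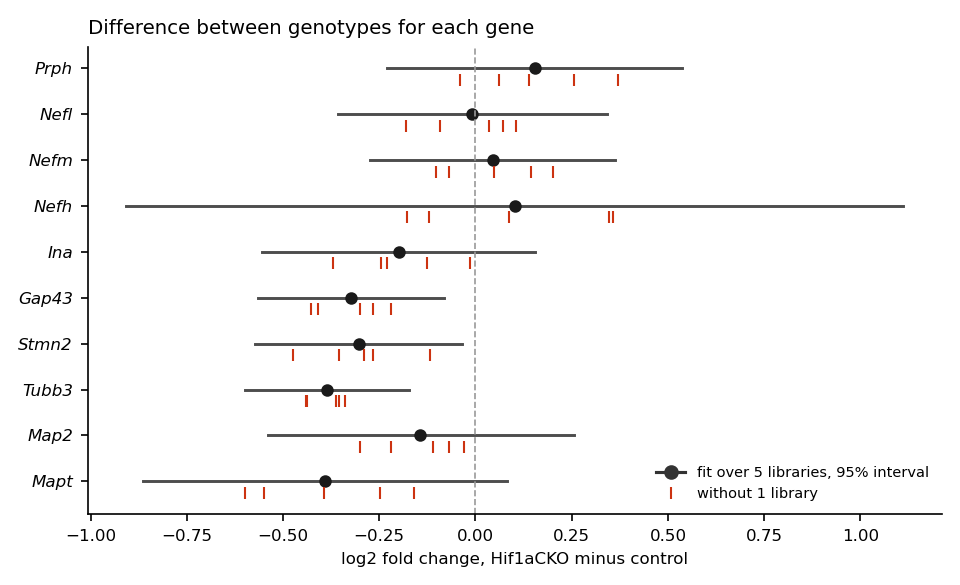
Log2 fold change of *Hif1aCKO* against control (horizontal axis) for the 10 genes, with edgeR's value over 5 libraries as a point, its 95% interval as a bar, and the values without each library as red ticks. The intervals of *Gap43*, *Stmn2*, and *Tubb3* lie below 0, and the ticks of *Prph*, *Nefl*, *Nefm*, and *Nefh* fall on both sides of 0.

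The libraries differed in which genes they held most of. Control replicate 6 was the highest library for 5 genes (*Ina*, *Gap43*, *Stmn2*, *Tubb3*, and *Mapt*), and *Hif1aCKO* replicate 3 was the highest for 4 (*Prph*, *Nefl*, *Nefm*, and *Map2*). *Hif1aCKO* replicate 4 was the lowest for 5 genes. *Gap43*, *Stmn2*, and *Tubb3* together had 76141 and 89105 normalized counts in the controls, and 69681, 61604, and 65543 in *Hif1aCKO*. The library with the highest sum of cycling markers, *Hif1aCKO* replicate 4, had the lowest sum of these 3 genes, and the part of cycling cells in the difference was not tested. Without *Hif1aCKO* replicate 3, the library with glial reads, the 3 genes still had no overlap, with log2 fold changes of -0.41 for *Gap43*, -0.35 for *Stmn2*, and -0.35 for *Tubb3*, each with an unadjusted p under 0.05 in edgeR. Within the female libraries, 1 of each genotype, the log2 ratios were -0.06 for *Gap43* and -0.02 for *Stmn2*. Within the male libraries, 1 control and 2 *Hif1aCKO*, they were -0.51 and -0.52. With sex as a term in edgeR, the log2 fold changes were -0.32 for *Gap43*, -0.31 for *Stmn2*, and -0.40 for *Tubb3*, and that of *Stmn2* no longer had an unadjusted p under 0.05.

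Ratios within a library do not depend on the scaling between libraries, and 8 of them were compared by a two-sided exact permutation test over libraries, which with 2 against 3 cannot go below p = 0.1. Among the 5 filament genes, per kilobase, *Nefl* made up 47.6% to 52.8% of the summed level and *Nefm* 24.6% to 28.9%. The share of *Prph* was 12.9% and 18.0% in the controls, and 16.1%, 19.4%, and 15.4% in *Hif1aCKO* (exact p = 0.6). *Ina* had 5.39% and 7.29% in the controls, and 4.80%, 6.51%, and 5.17% in *Hif1aCKO* (exact p = 0.5). *Nefh* had at most 0.208% in any library (exact p = 0.9). The filament genes thus kept the same order, *Nefl*, *Nefm*, *Prph*, *Ina*, and *Nefh*, in all 5 libraries. The ratio of *Nefm* to *Nefl* per kilobase was 0.545 and 0.494 in the controls, and 0.507, 0.553, and 0.573 in *Hif1aCKO* (exact p = 0.5).

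Among 7 beta-tubulin genes, the share of *Tubb3* per kilobase was 37.4% and 38.4% in the controls, and 30.5%, 32.9%, and 34.5% in *Hif1aCKO*. The groups did not overlap, and the exact p of 0.1 was the smallest the design allows (0.533 after adjustment over the 8 ratios). The log2 difference of the share was -0.22, and -0.17 without *Hif1aCKO* replicate 3. *Tubb5*, the most abundant beta-tubulin gene and one used by cells of many types, had means of 41951 ± 443 in controls (SD, n = 2) and 41487 ± 1276 in *Hif1aCKO* (SD, n = 3), with a log2 fold change of -0.02. *Tubb4b* had 1159 and 1059 normalized counts in the controls, and 1525, 1496, and 1594 in *Hif1aCKO*, with a log2 fold change of 0.47 (edgeR, adjusted p = 0.599). The ratio of *Gap43* to *Basp1*, another membrane-bound growth-cone protein, was 18.2 and 22.7 in the controls, and 17.9, 9.79, and 11.7 in *Hif1aCKO* (exact p = 0.2, adjusted 0.533), a log2 difference of -0.68 that was -0.93 without *Hif1aCKO* replicate 3. *Basp1* itself had means of 2446 ± 128 in controls (SD, n = 2) and 3167 ± 642 in *Hif1aCKO* (SD, n = 3), so the ratio held a higher denominator in *Hif1aCKO* replicates 4 and 5 as well as a lower numerator. *Stmn2* to *Stmn1* (exact p = 0.2) and *Mapt* to *Map2* (exact p = 0.6) overlapped between the groups.

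**Figure D3:**
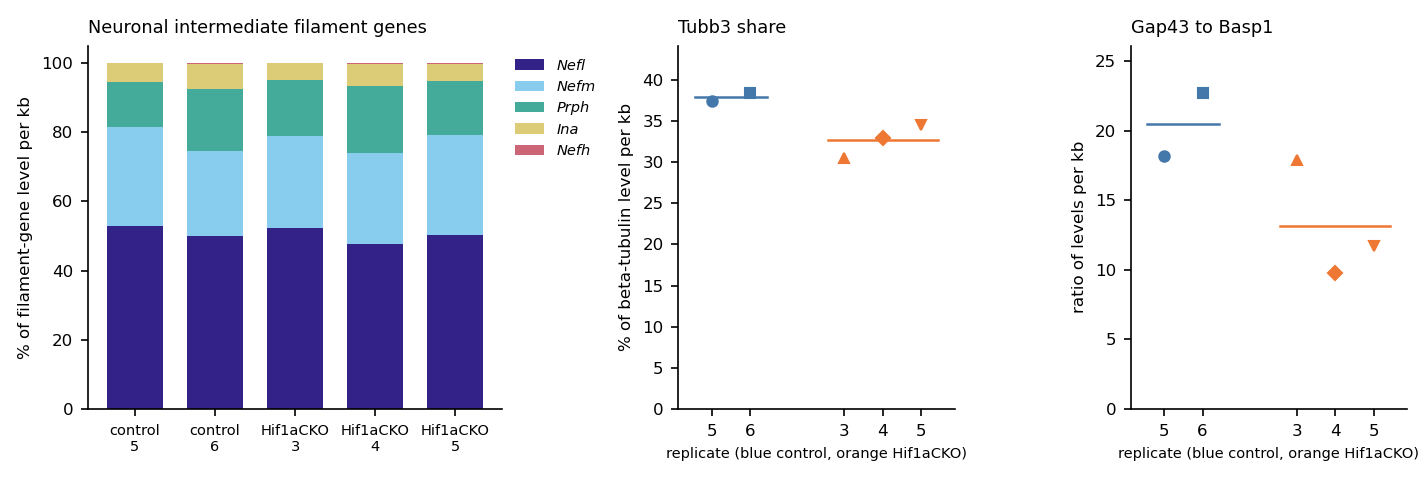
Left, the share of each of the 5 neuronal intermediate filament genes in their summed level per kilobase (%, stacked bars, 1 per library). Middle and right, the share of *Tubb3* among 7 beta-tubulin genes (%) and the ratio of *Gap43* to *Basp1* per kilobase, with points for libraries and lines for group means. The bars keep the same order in all 5 libraries, and the orange points lie below the blue points in both other panels.

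Related genes were taken from lists by function, of which 126 of 136 genes were tested. Of these 126, 50 were higher and 76 lower in *Hif1aCKO*, with a median log2 fold change of -0.05. At an unadjusted p under 0.05, 9 were lower and 4 higher (7.14% and 3.17%, beside 3.85% and 3.83% of all genes). The groups did not overlap for 34 lower genes (27.0%) and 16 higher genes (12.7%), beside 12.9% and 12.9% of all genes. Of genes with a mean normalized count of at least 1000, 7.38% were lower at that p and 19.5% were lower without overlap. The lists of related genes were not limited by count. By edgeR 0 were called at the call rule, and DESeq2 called 1, *Tuba1c*.

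Among 27 other growth-cone proteins, 19 were lower with a median of -0.19, and 4 had an unadjusted p under 0.05. *Ncam1*, a neural adhesion molecule, had 19294 and 22907 normalized counts in the controls, and 16392, 15642, and 14762 in *Hif1aCKO*. Its log2 fold change of -0.44 (SE 0.10, edgeR, adjusted p = 0.586) was larger in size than that of any of the 10 genes. *Dpysl2* and *Dpysl3*, which encode collapsin response mediator proteins of the growth cone, had log2 fold changes of -0.38 and -0.40 (edgeR, adjusted p = 0.621 for each). *Dpysl2* was, like *Gap43*, close to the controls in *Hif1aCKO* replicate 3, with 38046 normalized counts against 38910 in control replicate 5. *Rufy3*, named because it is the remaining member of the 4, had a log2 fold change of -0.46 (edgeR, adjusted p = 0.621). It was named after its value was seen.

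Among 24 other microtubule-associated proteins, 16 were lower with a median of -0.15. *Map1b*, abundant in growing axons, had 65730 and 78465 normalized counts in the controls, and 60828, 38975, and 45212 in *Hif1aCKO*. Its groups did not overlap, and the log2 fold change was -0.58 (SE 0.17, edgeR, adjusted p = 0.598). Here too *Hif1aCKO* replicate 3 was nearest to the controls. The other 23 genes of this list all had an unadjusted p above 0.05.

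Of 10 other alpha- and beta-tubulin genes, 7 were lower and 3 higher. *Tuba1a*, the main alpha-tubulin of developing neurons, had means of 30314 ± 442 in controls (SD, n = 2) and 26180 ± 1256 in *Hif1aCKO* (SD, n = 3), with a log2 fold change of -0.21 (edgeR, adjusted p = 0.621). *Tuba1c*, an alpha-tubulin of many cell types, had 181 and 160 in the controls, and 947, 834, and 186 in *Hif1aCKO*. Replicates 3 and 4 alone were high, and *Hif1aCKO* replicate 5 was at the level of the controls. Its adjusted p was 0.0241 in DESeq2 and 0.599 in edgeR. Alpha-tubulin genes are near copies of each other and reads that map to several places were not counted, so their levels are uncertain.

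The stathmins *Stmn1*, *Stmn3*, and *Stmn4* had log2 fold changes of -0.08, -0.20, and 0.00 and no unadjusted p under 0.05. Among 8 other intermediate filament genes, *Vim*, which encodes vimentin, had 7420 and 7240 normalized counts in the controls, and 5971, 5427, and 5864 in *Hif1aCKO*. The log2 fold change was -0.35 (SE 0.10, edgeR, adjusted p = 0.598). *Nes*, the filament gene of neural progenitors, had at most 32.1 normalized counts in any library.

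*Kif5a*, the kinesin that carries neurofilaments along axons, had 1176 and 1236 normalized counts in the controls, and 873, 988, and 745 in *Hif1aCKO*. It was the member of 13 linker and turnover genes with an unadjusted p under 0.05 (log2 fold change -0.47, SE 0.17, edgeR, adjusted p = 0.621). Among 17 kinases and phosphatases of neurofilaments and tau, *Prkca* had 272 and 269 in the controls, and 399, 364, and 478 in *Hif1aCKO* (log2 fold change 0.61, edgeR, adjusted p = 0.621). *Gsk3b*, a tau kinase, had a log2 fold change of -0.39 (edgeR, adjusted p = 0.654). None of the 21 genes of tubulin folding, severing, and modification had an unadjusted p under 0.05, and 15 of them were lower.

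ELAV-like proteins bind and stabilize neuronal mRNAs, that of *Gap43* among them. *Elavl2* had 8160 and 11332 normalized counts in the controls, and 7895, 6655, and 6130 in *Hif1aCKO*, a log2 fold change of -0.50 (SE 0.17, edgeR, adjusted p = 0.621). *Elavl3* had a log2 fold change of 0.21 and *Elavl4*, the member best known for binding *Gap43* mRNA, of 0.06. The 3 genes thus did not share a direction by group mean.

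Without *Hif1aCKO* replicate 3, log2 fold changes of the related genes were -0.78 for *Map1b*, -0.56 for *Dpysl2*, -0.47 for *Dpysl3*, -0.57 for *Rufy3*, -0.47 for *Ncam1*, and -0.61 for *Elavl2*. They were -0.24 for *Tuba1a*, 1.58 for *Tuba1c*, 0.48 for *Tubb4b*, -0.38 for *Vim*, -0.48 for *Kif5a*, 0.64 for *Prkca*, and -0.57 for *Gsk3b*. All 13 kept their direction, and the 13 had an unadjusted p under 0.05 in edgeR without that library.

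**Figure D4:**
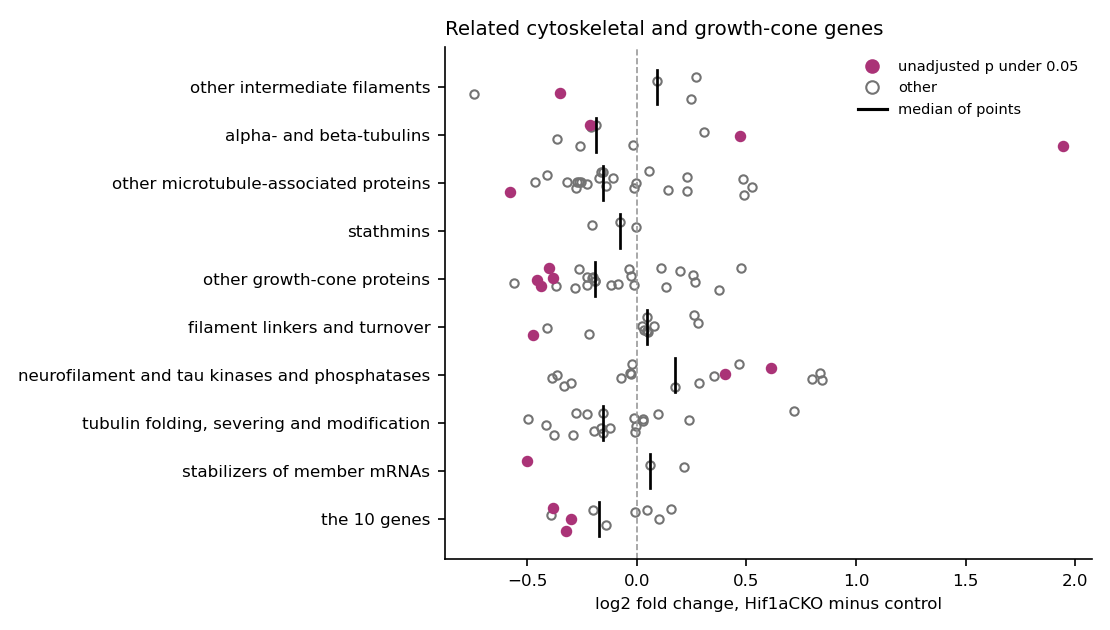
Log2 fold change of *Hif1aCKO* against control (horizontal axis) for genes of each list with 50 or more normalized counts on average and, in the bottom row, for the 10 genes. Filled points had an unadjusted p under 0.05 in edgeR, and black bars mark the median of the points plotted. The filled points of growth-cone proteins and of the 10 genes lie below 0, and those of kinases lie above it.

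The genes whose pattern over the 5 libraries was most like that of each member were found among 10841 genes. The measure was the root-mean-square difference of centred log2 values, and it only describes 5 libraries that differ in depth and genotype. For *Tubb3* the nearest were *Spsb3* (0.026) and *Dbh* (0.0327), the gene of the enzyme that makes noradrenaline. For *Gap43* they were *Uba3* (0.0188) and *Scg3* (0.0241), and for *Stmn2* they were *Zfp37* (0.013) and *Ctsd* (0.0268). *Nefm* was followed most closely by *Snx27* (0.0214) and by the stathmin gene *Stmn4* (0.033), and *Nefl* by *Mettl16* (0.0197) and *Spcs3* (0.0265). *Ina* had *Camk1* (0.0106) and *Tfip11* (0.0132), *Map2* had *Zfp706* (0.009) and *Fyco1* (0.0336), and *Prph* had *Prkag2* (0.0369) and *Appbp2* (0.0394). *Mapt* had *Grina* (0.0547) and *Atg4a* (0.0569), and *Nefh* had *Fam69b* (0.0598) and *Ccne1* (0.0701), the least close pairs. None of the 10 genes was among the nearest genes of another.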

How the data were processed

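Gene-level counts from bulk RNA-seq of sorted E14.5 mouse sympathetic neurons were analysed in 2 control and 3 *Hif1aCKO* libraries of 100 cells each, grouped by the sample labels. The authors trimmed reads (cutadapt version 1.18), removed ribosomal and vector reads (Bowtie version 1.2.2), mapped the rest to GRCm38 (STAR version 2.7.0c), and obtained a count for each gene from Rsubread, multi-mapping reads excluded. What was deposited is the table of raw counts, not normalized by the authors. The labels do not say whether a library came from 1 embryo, so p-values measure the spread between these libraries. No pair of libraries was a duplicate (chi-square per degree of freedom 15.2 to 38.5).

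Genotypes were compared in R (version 4.3.3) by the quasi-likelihood test of edgeR (version 4.0.16) after filterByExpr and TMM, adjusted by Benjamini-Hochberg over 15032 genes. The common biological coefficient of variation was 0.384. The study's methods give DESeq2, which was run as an alternative (version 1.42.0), with voom from limma (version 3.58.1), the likelihood ratio test, other normalizations and filters, sex as a term, and leaving out each library. A normalized count is the count over its library's effective size (total times TMM factor), times the mean of these sizes. Levels per kilobase used the union of exons of GENCODE release M21 on GRCm38, which held 20195 of the 20224 identifiers. Ratios were tested by exact permutation. Scripts were tested on simulated data. Related genes were named where they had the 2 highest mean counts or the 2 smallest p-values of their list, and the nearest 2 genes by pattern were named for each member. The members and lists were chosen with earlier results of these data known, so no set test was run. Tables were made in Python 3.11.15 with pandas 2.3.3 and numpy 2.4.6, and plots with matplotlib 3.10.9. Markers without a row were not analysed here, and 1 gene that the naming rule gives is not reported here.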

Additional observations from a re-analysis of the deposited data

How the results depend on the processing

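No member was called under any alternative, while the count over all genes was 0 with edgeR's quasi-likelihood test, 65 with DESeq2, 40 with the likelihood ratio test, and 0 to 4 when each library was left out. *Gap43*, *Stmn2*, *Tubb3*, and *Mapt* kept their direction in all 17 alternatives. With each *Hif1aCKO* library left out, 3 to 5 members lay below both controls. Below the 1 control left were 5 members without control replicate 5 and 3 without control replicate 6. Without control replicate 6 the log2 fold changes were -0.22 for *Gap43*, -0.12 for *Stmn2*, and -0.34 for *Tubb3*. Of the members, 3 were lower at an unadjusted p under 0.05, against 1 with the likelihood ratio test. With each *Hif1aCKO* library left out, 1 to 3 members were lower at that threshold (1 without replicate 5). Among the related genes, 9 were lower at that threshold, against 15 with limma-voom, 16 with quality weights, and 2 to 21 with each library left out (2 without control replicate 6, 4 without *Hif1aCKO* replicate 5, and 21 without *Hif1aCKO* replicate 3), and 4 were higher, against 0 to 9 (0 without control replicate 6 and 9 without *Hif1aCKO* replicate 3).

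Signs of small differences reversed, and the cause was not tested. *Nefl* was 0.023 with upper-quartile normalization, 0.034 with total counts, 0.032 with sex as a term, 0.21 within female embryos, and -0.18 to 0.11 with each library left out (0.07 without control replicate 5, 0.11 and 0.04 without *Hif1aCKO* replicates 4 and 5). *Prph* was -0.13 within male embryos and -0.04 to 0.37 with each library left out. *Nefm* ranged from -0.10 (without control replicate 6) to 0.20, with -0.07 without *Hif1aCKO* replicate 3. *Nefh* was -0.057 with sex as a term, -0.31 within female embryos, and -0.18 to 0.36 with each library left out (-0.12 without control replicate 5). Within female embryos *Ina* was 0.051 and *Map2* 0.21. With each library left out, the log2 difference of the *Prph* share ranged from -0.096 to 0.393, that of the *Nefh* share from -0.252 to 0.466 (-0.237 without control replicate 5 and -0.089 without *Hif1aCKO* replicate 4), that of the *Ina* share from -0.421 to 0.014, and that of *Nefm* to *Nefl* from -0.004 to 0.138. The within-sex values were added after the data were seen. Where 1 control library was left, it was assumed to vary like the other group. No paired analysis was possible because the groups share only replicate number 5.

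*Nefh* rested on only 58 to 138 counts per library, against at least 1939 for every other member.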
